A study of Mus musculus with 8 samples.

Results

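Mature ducts and stroma of the pubertal mouse mammary gland were compared across all 611 mouse miRNAs of an Agilent miRNA array. The members were the array rows that were not control probes and whose name carried the mouse prefix, so that all 611 were kept and 39 viral and 22 control rows were left out. Mature ducts were hybridised on 2 arrays and stroma on 3, which is 5 of the 8 arrays of the series. The 3 other arrays held terminal end buds (TEBs), the growing tips of the ducts. They entered the fit to share its estimate of the spread between arrays. They also entered the scaling, which used the miRNAs detected on all 8 arrays. All tissue was microdissected from mammary glands 2 to 5 of anaesthetised 5-week-old female beta actin-GFP reporter mice of the FVB/n strain, without further treatment. The stroma was cut from distal regions of the gland, and every group carried the same reporter. The beta actin promoter is active in most cell types, so that GFP in these mice is not a marker of epithelium alone. The sources do not state how many mice gave each sample or whether tissue was pooled, so the p-values below measure only the spread between these samples. The comparison asks which miRNAs set the differentiated ductal tree apart from the tissue around it.

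miRNAs are short RNAs that guide silencing proteins to messenger RNAs, mostly through pairing of their seed, bases 2 to 8, with the target. A mature mammary duct is a tube of luminal epithelial cells wrapped by myoepithelial cells. The stroma of the fat pad holds adipocytes, fibroblasts, blood vessels, nerves and leukocytes. Dissected ducts are pieces of tissue and can carry some of their surroundings with them. In bulk samples of this kind, fewer cells of a type and less miRNA per cell cannot be told apart.

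The mature sequences of the 10 miRNAs that were detected in ducts and not in stroma are shown first, because the largest differences fell on them and because several share a seed. They were taken from RefSeq (GRCm38.p6), where all 32 miRNAs looked up were matched, and capitals mark the seed. The array's names are older than those of RefSeq and do not state the arm of the hairpin, so the arm that the later names give was used.
miR-200b: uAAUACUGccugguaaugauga
miR-200c: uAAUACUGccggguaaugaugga
miR-429: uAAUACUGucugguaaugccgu
miR-200a: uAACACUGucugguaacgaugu
miR-141: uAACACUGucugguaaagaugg
miR-183: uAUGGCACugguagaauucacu
miR-96: uUUGGCACuagcacauuuuugcu
miR-205: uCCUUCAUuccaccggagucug
miR-184: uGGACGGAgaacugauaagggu
miR-18a: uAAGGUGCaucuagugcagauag
The first 3 share the seed AAUACUG and the next 2 share AACACUG. Within these groups the mature sequences are close, with 2 differences over 22 bases between miR-200b and miR-200c and 2 between miR-200a and miR-141. No other seed was shared by miRNAs that were higher in ducts.

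The second set holds pairs of miRNAs that were higher in stroma and share a seed, together with miR-365 and miR-22.
miR-196a: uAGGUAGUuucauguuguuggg
miR-196b: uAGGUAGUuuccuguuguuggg
miR-193: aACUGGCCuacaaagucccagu
miR-193b: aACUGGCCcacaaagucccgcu
miR-103: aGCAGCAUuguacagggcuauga
miR-107: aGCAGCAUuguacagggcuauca
miR-365: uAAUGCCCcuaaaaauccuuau
miR-22: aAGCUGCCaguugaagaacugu
miR-196a and miR-196b differ at 1 of 22 bases, miR-103 and miR-107 at 1 of 23, and miR-193 and miR-193b at 3 of 22. For such near-identical miRNAs, signal from the partner on a probe cannot be told apart from the miRNA's own signal, and the differences within a pair are uncertain. The same holds for miR-29a and miR-29c, which differ at 1 of 22 bases, and for let-7f and let-7g, which differ at 2 of 22. It also holds for miR-200b and miR-200c and for miR-200a and miR-141, above, which differ at 2 of 22.

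The 5 arrays detected similar numbers of miRNAs but differed in brightness and in their lowest detected signal. Before scaling, that lowest signal was 13.2 and 3.81 units in ducts and 10.8, 9.87 and 2.33 units in stroma. Of the 611 mouse miRNAs, 151 and 169 were flagged as detected on the duct arrays and 142, 146 and 154 on the stroma arrays. The summed signal, the nearest measure to a depth, was 88828 and 86267 units in ducts and 71694, 62818 and 54239 units in stroma, so that duct arrays were brighter before scaling. The arrays were scaled on the miRNAs that all 8 of them detected, 108 in number, by bringing the 75th percentile of these to a common value, with factors of 0.75 and 0.80 for ducts and 1.02, 1.20 and 1.36 for stroma. All signals below are in these scaled units, which are relative fluorescence, and a negative value is a signal under the local background. Over the 151 miRNAs tested, log2 signals correlated with r of 0.978 between the duct arrays, 0.984 to 0.989 among the stroma arrays and 0.733 to 0.756 between the tissues. These correlations run across miRNAs, which are not independent of each other. The coefficient of variation between arrays had a median of 7.69% in ducts and 12.1% in stroma, against a median error of about 10.8% that the scanner software gave for a single signal in each tissue.

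A miRNA was tested when it was detected on every duct array or on every stroma array, which 151 of the 611 were. At an adjusted p under 0.05, 41 of them (27.2%) differed and are called below, 16 (10.6%) higher in ducts and 25 (16.6%) higher in stroma, by limma with Benjamini-Hochberg adjustment. Without adjustment 58 had a p under 0.05. The directions were unlike in size, since 10 of the 16 higher in ducts but only 6 of the 25 higher in stroma differed at least 2-fold, with the bounds given below used for miRNAs below detection in stroma. They were also unlike in kind. Of the 16, 5 were detected on all 5 arrays, whereas 24 of the 25 were, against 126 of all 151 tested. Most differences toward stroma were thus differences of degree, though detection on all 5 arrays was the rule among tested miRNAs. For each of the 41, the duct arrays and the stroma arrays did not overlap. Many uncalled miRNAs, such as let-7a, let-7d, let-7i, miR-20a, miR-92a, miR-30c and miR-10a, were separate in the same way, so this did not set the calls apart. The share of all 151 tested miRNAs with such separation was not counted. Each row of the slide held arrays of both tissues, and the equal sign within both rows follows from this separation, so it is no separate check. With slide row as a covariate 34 miRNAs passed, 15 higher in ducts and 19 in stroma. The exact permutation test, which has 10 ways to split 5 arrays into 2 and 3, gave a two-sided p of 0.2 for each miRNA with separate groups, the smallest it can give.

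The number of calls in each direction depended on the scaling and the background correction. Ducts held 39.0% of the 41 calls. This share was 57.9% of 19 calls when arrays were scaled to the 75th percentile of all mouse miRNAs, 18 of 36 calls with the authors' deposited log2 values and 23.7% of 59 after normexp background correction. It was 79.2% of 48 with scaling to the median, an alternative chosen after the data had been seen, and 93.1% of 58 with no scaling. The median log2 difference of all 151 miRNAs, ducts minus stroma, was -0.11, and these alternatives moved it by -0.16, 0.00, -0.14, 0.34 and 0.61 in that order. Relative to the median of each alternative, all 41 miRNAs stayed on their own side with the 75th percentile of all miRNAs, the median and no scaling, and 40 did with quantile normalization, normexp and the deposited log2 values. Over 5 other scalings, 10 of the 16 duct calls and 4 of the 25 stroma calls passed every time. The 14 were the miR-200 family, miR-184, miR-96, miR-205, miR-183 and miR-146b in ducts, and miR-378, miR-378*, miR-196a and miR-193b in stroma. None of the 16 changed sign under them, whereas 10 of the 25 did under at least 1 of them, and these 10 were among the smaller differences toward stroma.

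**Figure D1:**
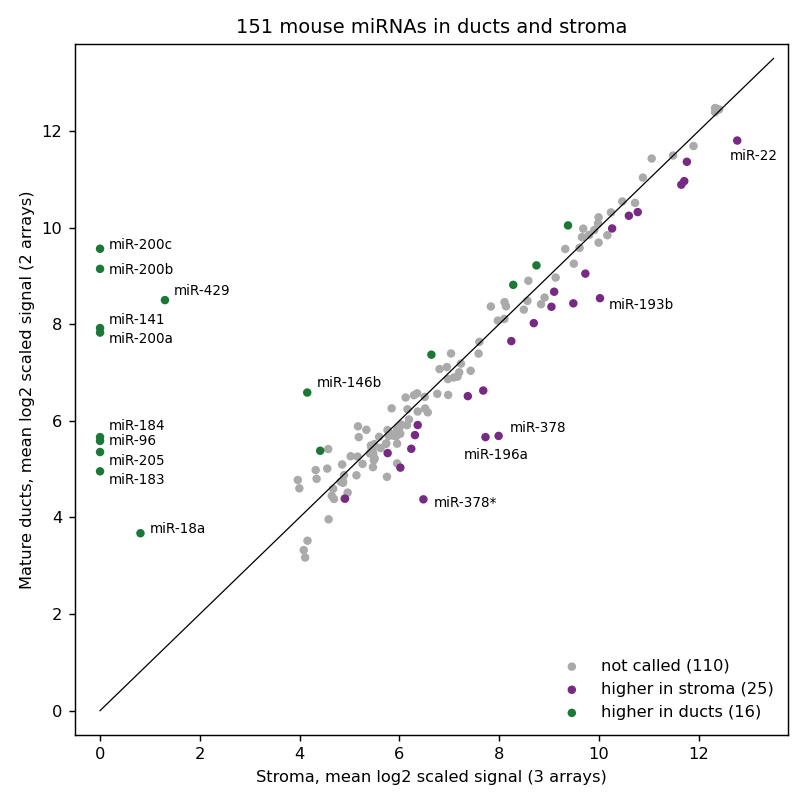
Mean log2 scaled signal of the 151 tested miRNAs in stroma (x axis, 3 arrays) and in mature ducts (y axis, 2 arrays), each point being 1 miRNA and the line marking equal signal. Signals under 1 were set to 1, so that the points at 0 on the x axis were under 1 unit on every stroma array. The 16 miRNAs higher in ducts include a group along the left edge, while the 25 higher in stroma lie close under the line apart from miR-378, miR-378*, miR-196a and miR-193b.

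The detection flags of 10 miRNAs were set on each duct array and nowhere in stroma. These were miR-200a, miR-200b, miR-200c, miR-141, miR-429, miR-183, miR-96, miR-205, miR-184 and miR-18a. The reverse pattern, every stroma array and neither duct array, was shown by 0 miRNAs. With 1 array enough to count as detected, the numbers were 25 and 8. Leaving out duct replicate 1 raised the first count to 20. The second count was 1 without duct replicate 1, 7 without duct replicate 2, 2 without stroma replicate 1 and 1 without stroma replicate 2. The shared part was larger, with 126 miRNAs detected on all 5 arrays out of 185 detected on any, and 426 detected on none.

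The miR-200 family, which represses the transcription factors Zeb1 and Zeb2 and so helps to keep cells epithelial, was higher in ducts in all 5 of its members, against 10.6% of all tested miRNAs. All 5 passed the detection filter through the duct arrays alone. miR-200c gave 796 and 716 units in ducts and -19.5, -19.7 and -9.32 in stroma. miR-200b gave 607 and 527 units in ducts and -8.95, -6.14 and -2.57 in stroma. miR-429 gave 375 and 348 units in ducts and -0.03, 2.71 and 5.52 in stroma. No stroma array came near the duct arrays for any of these. miR-141 gave 249 and 236 units in ducts and -16.1, -18.7 and -11.9 in stroma. miR-200a gave 245 and 209.7 units in ducts and -11.7, -14.9 and -7.16 in stroma. Every stroma signal of the family was flagged as undetected.

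Since the stroma values are below detection, the fold changes of these miRNAs are bounds. They set the duct mean against, per stroma array, the higher of the miRNA's own signal and the lowest signal of any detected miRNA, which was 11.0, 11.9 and 3.18 units. On that basis miR-200c was at least 101-fold higher in ducts, miR-200b at least 75.9-fold, miR-429 at least 40.3-fold, miR-141 at least 32.5-fold and miR-200a at least 30.4-fold. The limma fit with a floor of 1 unit, which sets most stroma signals of the family to the same value, gave adjusted p-values of 6.41e-10 for miR-200c, 7.50e-10 for miR-200b, 0.000216 for miR-429, 3.24e-09 for miR-141 and 6.93e-09 for miR-200a. With the floor raised to the lowest detected signal of each array, limma gave adjusted p-values of 0.000383 for miR-200c and miR-200b, 0.000262 for miR-429, 0.000972 for miR-141 and 0.00101 for miR-200a. The fitted differences ran from 7.20 ± 0.64 for miR-429 to 9.56 ± 0.09 for miR-200c on the log2 scale (SE, 2 duct and 3 stroma arrays) and depend on the floor of 1 unit. The difference of miR-429 was 6.55 without stroma replicate 1 and 7.81 without stroma replicate 3. The family lies at 2 places in the genome (GRCm38.p6, minus strand). On chromosome 4, the hairpin of miR-200b (chr4:156055681-156055750) is followed by that of miR-200a after 695 bases and by that of miR-429 a further 908 bases on, within the predicted gene Gm13648. On chromosome 6, the hairpins of miR-200c (chr6:124718322-124718390) and miR-141 are 336 bases apart. Probes for miRNAs of both places showed the duct signal. Across the places miR-200b and miR-200c, and miR-200a and miR-141, differ at 2 of 22 bases, so signal from the partner cannot be told apart. On the TEB arrays miR-200a gave 70.5 to 86.6 units and miR-200c gave 806 to 838.

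miR-183 and miR-96, which come from 1 cluster with miR-182 and are best known from sensory epithelia, were also higher in ducts. miR-96 gave 45.7 and 50.3 units in ducts and -1.47, -4.16 and 0.48 in stroma. miR-183 gave 29.3 and 32.8 units in ducts and -8.45, -13.5 and -6.58 in stroma. Both were undetected on every stroma array. The bounds were at least 6.43-fold for miR-96 (adjusted p = 7.59e-08, limma) and at least 4.16-fold for miR-183 (8.05e-08), and the call of miR-183 was lost after normexp correction. With the floor at the lowest detected signal the adjusted p was 0.0169 for miR-96 and 0.0362 for miR-183. Their hairpins are 116 bases apart on the minus strand of chromosome 6, at chr6:30169446-30169551 and chr6:30169668-30169737. The third member, miR-182, was detected on none of the 5 arrays, and the other two passed the detection filter through the duct arrays alone.

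miR-205, a miRNA of basal epithelial cells that also acts on Zeb1 and Zeb2, gave 42.7 and 39.1 units in ducts and -8.83, -7.80 and -6.85 in stroma, a difference of at least 5.48-fold (adjusted p = 3.00e-08, limma). miR-184, best known from lens and cornea, gave 50.9 and 50.3 units in ducts and -21.1, -30.3 and -18.3 in stroma. The gap was at least 6.79-fold (adjusted p = 0.00292). The duct arrays of miR-184 lay close together, while its fitted difference of 5.66 had an SE of 0.85, since the fit shares its spread with the TEB arrays, where miR-184 gave 8.51, 6.55 and -0.22 units and was undetected. With the floor at the lowest detected signal the adjusted p was 0.0204 for miR-205 and 0.0169 for miR-184. Both were undetected on every stroma array and passed the detection filter through the duct arrays alone. The hairpin of miR-184 lies on the minus strand at chr9:89802260-89802328, and that of miR-205 on the minus strand at chr1:193507463-193507530. Neither lies inside another annotated gene, but genes named after a miRNA, host genes included, were left out of this search. miR-203, a miRNA of stratified epithelium, was detected on no array of either tissue.

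**Figure D2:**
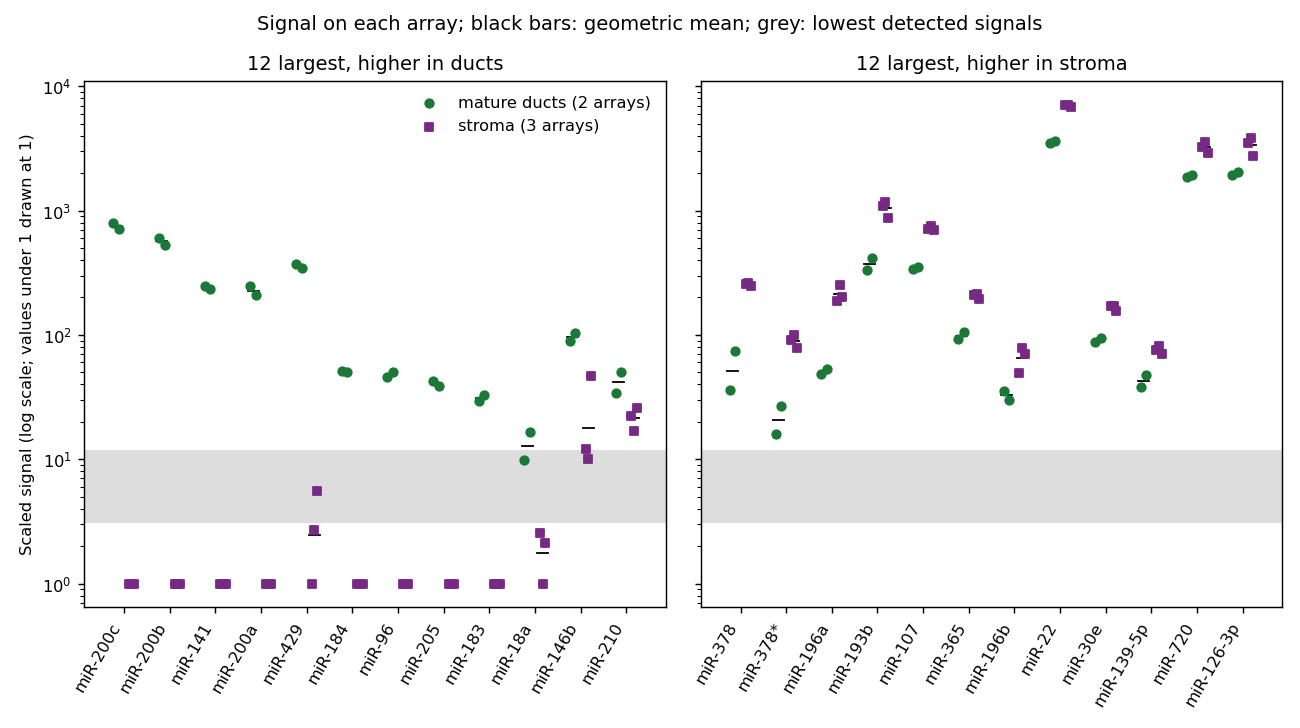
Scaled signal on each of the 2 duct arrays (circles) and 3 stroma arrays (squares), on a log axis, for the 12 called miRNAs with the largest difference in each direction. Black bars are geometric means of the values drawn, values under 1 are drawn at 1, and the grey band spans the lowest detected signals of the 5 arrays. In the left panel the stroma squares of 9 miRNAs lie under the band on every array and those of miR-429 lie in or under it, whereas in the right panel every point lies above it.

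The miR-17-92 cluster, a polycistron that promotes proliferation, differed by less. Of its 6 members 5 were tested and 2 were called, both higher in ducts, against 10.6% of all tested miRNAs. miR-18a and miR-19a passed the detection filter through the duct arrays alone. miR-18a gave 9.89 and 16.4 units in ducts and 2.54, -2.55 and 2.12 in stroma, all weak and a difference of at least 1.71-fold (adjusted p = 0.00292, limma). Its fitted difference of 2.86 rests on the floor of 1 unit. With the floor at the lowest detected signal it was 0.77 and did not pass (adjusted p = 0.421), and the call was also lost with quantile normalization (0.0627), the deposited log2 values (0.0571) and the methods' t-test (0.0767). The difference turned to -0.17 after normexp correction. miR-19b, with strong signal, gave 602 and 588 units in ducts and 439, 468 and 387 in stroma, 1.38-fold (adjusted p = 0.0269). Its call was lost without duct replicate 2, stroma replicate 1 or TEB replicate 2. miR-92a had 498 and 458 units against 370, 422 and 363, and miR-20a 335 and 325 against 253, 250.2 and 188, and neither passed (adjusted p = 0.0667 and 0.0969). miR-19a had a difference of 0.81 with an adjusted p of 0.0651. With no scaling or with the median as the scale all 5 tested members passed as higher in ducts. miR-17 was detected on no duct or stroma array. All tested members had higher signal in TEBs than in ducts, for example 64.0 to 88.7 units for miR-18a.

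Outside the lists, 3 miRNAs were higher in ducts. miR-146b, an inhibitor of signalling to NF-kappaB, gave 89.4 and 103 units in ducts and 12, 10.0 and 46.9 in stroma, where stroma replicate 3 was well above the others, 5.40-fold in the fit (adjusted p = 0.0300, limma). It was detected on 2 of the 3 stroma arrays and passed the detection filter through the duct arrays alone. Its difference of 2.43 was 3.13 without stroma replicate 3, and its call stood in 2 of the 8 fits that left out 1 array (those without stroma replicate 3 and TEB replicate 1). miR-210, the main miRNA induced by hypoxia, gave 34.3 and 50.5 units in ducts and 22.3, 16.9 and 25.6 in stroma, 1.95-fold (adjusted p = 0.0334). Its call stood in 4 of the 8 such fits and its sign turned to -0.01 after normexp correction. miR-322, of the miR-15 and miR-16 family, was picked after its values were seen. It gave 1073 and 1039 units in ducts and 671, 654 and 675 in stroma, 1.58-fold (adjusted p = 0.00197), called in all 8 fits but not with the 75th percentile of all miRNAs.

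The miRNAs linked to fibroblasts and mesenchyme were not higher in stroma. Of 5 members 4 were tested, 2 were higher in ducts and none was higher in stroma, against 10.6% and 16.6% of all tested miRNAs, with a median of 0.45. miR-199a-5p gave 158 and 172 units in ducts and 93.3, 100.0 and 107 in stroma, 1.65-fold (adjusted p = 0.0119, limma). miR-214 gave 448 and 452 units in ducts and 297, 297 and 343 in stroma, 1.44-fold (adjusted p = 0.0128). Both hairpins lie within Dnm3 and its antisense transcript Dnm3os on chromosome 1, 5444 bases apart, and a second hairpin of miR-199a lies within Dnm2 on chromosome 9. miR-199a-3p, the other arm, had 2716 and 2799 units against 1999, 1984 and 2445 and did not pass (adjusted p = 0.105). miR-199b* had a difference of 0.07 (95% interval -0.49 to 0.63). The calls were lost when arrays were scaled to the 75th percentile of all miRNAs and without duct replicate 2, and that of miR-214 also without stroma replicate 1.

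Of the mural cell miRNAs, miR-145 and miR-145* were detected on no duct or stroma array, and miR-143 had 101 and 89.5 units in ducts and 93.4, 85.7 and 68.8 in stroma (difference 0.21, 95% interval -0.14 to 0.56). The defining marker of the list, miR-145, was thus below detection in both tissues, as it was in TEBs, which does not show that it was absent.

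Toward stroma, the list with the most calls was that of miRNAs linked to adipocytes. Of its 8 members 7 were tested and all 7 were higher in stroma, against 16.6% of all tested miRNAs, with a median difference of -1.06 against -0.11. This list, like the others, was chosen with earlier results of these data known, so the count is a description and not a test. Its members include both arms of a hairpin and near-identical sequences, so the 7 are not independent. Under the other scalings 7 passed with quantile normalization and with the deposited values, 5 with the 75th percentile of all miRNAs or the median, and 3 with no scaling, where miR-193 had the opposite sign, at 0.02. The eighth, miR-335-5p, was detected on none of the 5 arrays. Every tested member but miR-378* was detected on all 5 arrays.

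miR-378 and miR-378*, the arms of a hairpin inside Ppargc1b, a coactivator gene of mitochondrial metabolism, had the largest differences. miR-378 gave 35.7 and 74.3 units in ducts and 254, 262 and 247 in stroma, 4.93-fold higher in stroma (log2 difference -2.30 ± 0.36 SE, adjusted p = 0.00375, limma). miR-378* gave 16 and 26.9 units in ducts and 91.0, 99.9 and 78.6 in stroma, 4.31-fold (-2.11 ± 0.31, adjusted p = 0.00289), and was detected on 1 of the 2 duct arrays. Thus miR-378* passed the detection filter through the stroma arrays alone. The stroma arrays were tight and duct replicate 1 was the lower of the ducts for both arms. Without duct replicate 1 the differences were -1.56 and -1.52 (adjusted p = 0.0446 for each).

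miR-193b, which is needed with miR-365 for brown fat differentiation in culture, gave 331 and 417 units in ducts and 1094, 1178 and 872 in stroma, 2.80-fold (-1.48 ± 0.21, adjusted p = 0.00228, limma). miR-365 gave 92.6 and 105 units in ducts and 208, 214 and 194 in stroma, 2.08-fold (adjusted p = 0.000217). The hairpins of miR-193b and miR-365 lie 4238 bases apart on chromosome 16 (chr16:13449523-13449601 for miR-193b), and a second copy of miR-365 lies 14365 bases from miR-193 on chromosome 11. miR-193 itself gave 195 and 207 units in ducts and 303, 347 and 265 in stroma, 1.51-fold (adjusted p = 0.0172), with its call standing in 3 of the 8 fits that left out 1 array.

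miR-107 and miR-103, both of which lie inside pantothenate kinase genes and act on insulin signalling, were both higher in stroma. miR-107 gave 336 and 354 units in ducts and 710.4, 749 and 695 in stroma, 2.08-fold (adjusted p = 0.000129, limma). miR-103 gave 530 and 528 units in ducts and 873, 911 and 768 in stroma, 1.60-fold (adjusted p = 0.00600), and its call was lost without duct replicate 1. miR-107 comes from a single hairpin in Pank1 (chr19:34820687-34820773), and miR-103 from hairpins in Pank3 and Pank2. Neither passed with no scaling, and miR-103 was also lost with the 75th percentile of all miRNAs and with the median as the scale.

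The Hox-cluster miRNAs split. Of the 4 tested members 2 were higher in stroma, against 16.6% of all tested miRNAs, with a median difference of -0.59, which became 0.02 with no scaling. miR-196a gave 48.3 and 53.1 units in ducts and 188, 250.3 and 202 in stroma, 4.18-fold (-2.06 ± 0.14, adjusted p = 5.82e-05, limma), and it passed under every alternative tried. miR-196b gave 35.7 and 29.9 units in ducts and 49.7, 78.4 and 70.1 in stroma, 1.99-fold (adjusted p = 0.0170), and was lost without duct replicate 1, duct replicate 2 or stroma replicate 2. Both repress Hox genes, among which they lie. miR-10b, which also lies in a Hox cluster, had 282 and 270.0 units in ducts and 282, 297 and 249 in stroma, a difference of 0.00 (95% interval -0.39 to 0.39). miR-10a had a difference of -0.20 (-0.41 to 0.02). The 196a copies lie at chr11:96265164-96265265 and chr15:102973350-102973434, and miR-196b at chr6:52230081-52230165.

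**Figure D3:**
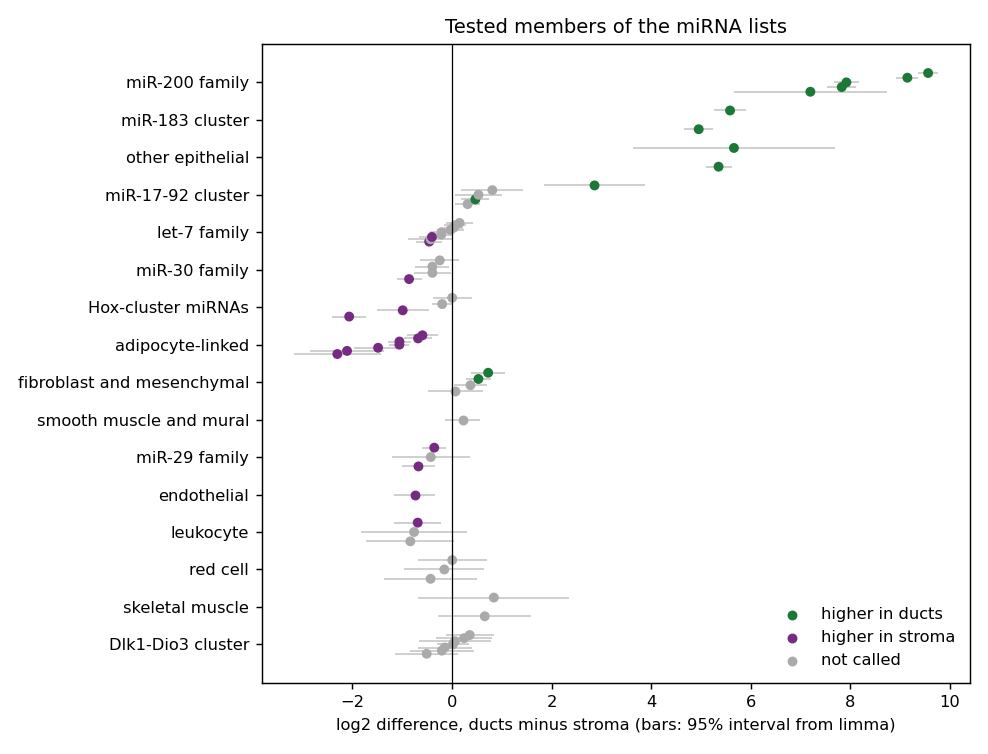
Log2 difference, ducts minus stroma, of each tested member of 16 miRNA lists, with 95% intervals from limma as bars and colour for the direction of calls at an adjusted p under 0.05. Epithelial lists lie far to the right of 0, the adipocyte-linked list lies wholly to the left, and the red cell, skeletal muscle and Dlk1-Dio3 lists hold no call.

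miR-22 was higher in stroma. It gave 3525 and 3613 units in ducts and 7072, 7073 and 6862 in stroma, 1.96-fold (-0.97 ± 0.08, adjusted p = 0.000154, limma), with tight arrays in each tissue. miR-30e, from a hairpin inside Nfyc, gave 87.3 and 95.2 units in ducts and 171, 172 and 155 in stroma, 1.82-fold (adjusted p = 0.00119). It was the only call among the 4 tested members of the miR-30 family, 1 in 4 against 16.6% of all tested, whose median was -0.39, or 0.22 with no scaling. miR-139-5p, inside Pde2a, gave 38.4 and 47.7 units in ducts and 75, 81.7 and 70.3 in stroma, 1.76-fold (adjusted p = 0.00598). The sequence listed as miR-720, since reclassified as a transfer RNA fragment, gave 1849 and 1941 units in ducts and 3260.4, 3536 and 2890.3 in stroma, 1.70-fold (adjusted p = 0.00292). miR-22, miR-30e, miR-139-5p and miR-720 did not pass with no scaling. With the 75th percentile of all miRNAs, miR-30e, miR-139-5p and miR-720 were lost too, as was miR-139-5p with the median as the scale. The calls of miR-139-5p and miR-720 were also lost without duct replicate 1.

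Tested markers of leukocytes had differences of -0.84 to -0.69 and the endothelial one -0.75. These lay within the range of the adipocyte-linked list, -2.30 to -0.59. miR-126-3p, an endothelial miRNA from a hairpin inside Egfl7, gave 1927 and 2061 units in ducts and 3526, 3863 and 2765 in stroma, 1.68-fold (adjusted p = 0.0177, limma). It was lost on leaving out either duct array or stroma replicate 1 or 2. Its call was also lost with no scaling, with the 75th percentile of all miRNAs and with the median as the scale. The partner miR-126-5p was not detected. Of the 6 leukocyte members 3 were tested and 1 was called as higher in stroma, against 16.6% of all tested miRNAs. miR-223, of myeloid cells, gave 336 and 321 units in ducts and 506, 538 and 546 in stroma, 1.61-fold (adjusted p = 0.0460), and its call stood in 1 of the 8 fits that left out 1 array. miR-142-3p, found across blood cells, had 32.0 and 37.7 units against 50.5, 106 and 44.5 and did not pass (adjusted p = 0.151). miR-150, miR-155 and miR-142-5p were detected on no array of either tissue.

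The summed signal of the leukocyte list was 377 to 390 units in ducts and 579 to 691 in stroma. That of the red cell list was 2617 and 3320 units in ducts and 2018 to 3622 in stroma, and its member miR-451 had a difference of 0.00 (95% interval -0.69 to 0.70). None of its 3 members was called, and none of 2 tested skeletal muscle members, against 27.2% of all tested miRNAs. With so few members, the lack of a call says little. The skeletal muscle sums were 56.1 and 179 units in ducts and 31.2 to 60.2 in stroma. The neural members miR-9, miR-9* and miR-124 were detected on none of the 5 arrays. The part of endothelial cells, leukocytes or muscle in the other differences was not tested. The miR-200 family was below detection in stroma, with sums of 0.00, 2.71 and 5.52 units, against 2273 and 2037 in ducts, negative signals counted as 0. Signals below detection do not show that the family was absent there. Adipocyte-linked miRNAs were present in both, with sums of 1535 and 1713 units in ducts and 3119 to 3760 in stroma.

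The brightest signals came from the probes of miR-21, let-7b, let-7c, miR-22 and let-7a in both tissues. Signals of different probes do not rank the abundance of the miRNAs, so only the comparison of each with itself is given. Apart from miR-22 none of them was called. let-7b gave 5702 and 5450 units in ducts and 5399, 5441 and 5465 in stroma, a difference of 0.04 (95% interval -0.15 to 0.22). miR-21, a miRNA raised in many tumours, had a difference of 0.14 (-0.37 to 0.66) and let-7c 0.06 (-0.15 to 0.27).

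The let-7 family, which accumulates as cells differentiate, was measured in all 9 of its members on the array. Of these, 2 were higher in stroma, near the 16.6% of all tested miRNAs that were, and none in ducts, with a median of -0.21 that became -0.37 with the 75th percentile of all miRNAs, 0.02 with quantile normalization, 0.13 with the median and 0.40 with no scaling. let-7f gave 2647 and 2614 units in ducts and 3191, 3383 and 3892 in stroma, 1.32-fold (adjusted p = 0.0320, limma). let-7g was the other call, 1.37-fold (adjusted p = 0.0217). Both were lost under each of the 5 other scalings, and let-7f changed sign with quantile normalization and with no scaling. No direction of the list held across scalings. The miR-29 family represses collagens, and 2 of its 3 tested members were higher in stroma, against 16.6% of all tested miRNAs. miR-29c gave 246 and 274 units in ducts and 446, 455 and 351 in stroma, 1.60-fold (adjusted p = 0.0144), miR-29a was 1.28-fold higher in stroma (adjusted p = 0.0447), and miR-29b had a difference of -0.43 and did not pass (adjusted p = 0.417). The family's median was -0.43. It was -0.58 with the 75th percentile of all miRNAs, -0.52 with quantile normalization, -0.54 with the deposited values, -0.08 with the median as the scale and 0.19 with no scaling. miR-29c kept its call in 2 of these 5 scalings and its sign in all, whereas miR-29a kept its call in 0. Of the 8 fits that left out 1 array, the call of miR-29c stood in 3 and that of miR-29a in 0.

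The remaining 6 calls toward stroma were picked out after their values were seen and were all under 1.6-fold. They were miR-500 (1.52-fold), miR-192, miR-350, miR-362-3p, miR-151-5p and miR-23a (1.22-fold). miR-500 and miR-362-3p come from 1 cluster on the X chromosome. All 6 changed sign with no scaling, miR-500 only to 0.00. None of the 7 tested members of the imprinted Dlk1-Dio3 cluster, of 35 on the array, was called, against 27.2% of all tested miRNAs. Their differences ran from -0.51 to 0.36, and 7 members are too few to read much into the count.

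The arms of a hairpin could seldom be compared. Of 168 pairs of arms on the array, 8 had both arms tested and 6 of these had the same sign. Only miR-378 and miR-378* were both called. The pair that differed most was miR-18a, at 2.86 with the floor of 1 unit, and miR-18a*, at -0.13 (95% interval -1.998 to 1.74), whose signals of 36.7 and 19.6 units in ducts and 20.5, 40.2 and 30.5 in stroma overlapped.

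Of the 41 calls, 29 belonged to a list and 12 did not. Of the 110 tested miRNAs that were not called, 70 had a 95% interval within 1 log2 unit on either side of 0, and the others could have changed by 2-fold or more without being seen at this number of arrays. Leaving out 1 array at a time, 19 of the 41 passed in all 8 fits, of which 11 were higher in ducts and 8 in stroma. The number of calls was 27 without duct replicate 1 and 25 without duct replicate 2. The number higher in ducts was 31 without TEB replicate 1, which also changed the scaling and moved the median difference by 0.25. The number higher in stroma was 8 without duct replicate 1, 14 without duct replicate 2, 16 without stroma replicate 1, 12 without stroma replicate 2, 14 without TEB replicate 1 and 16 without TEB replicate 3.

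**Figure D4:**
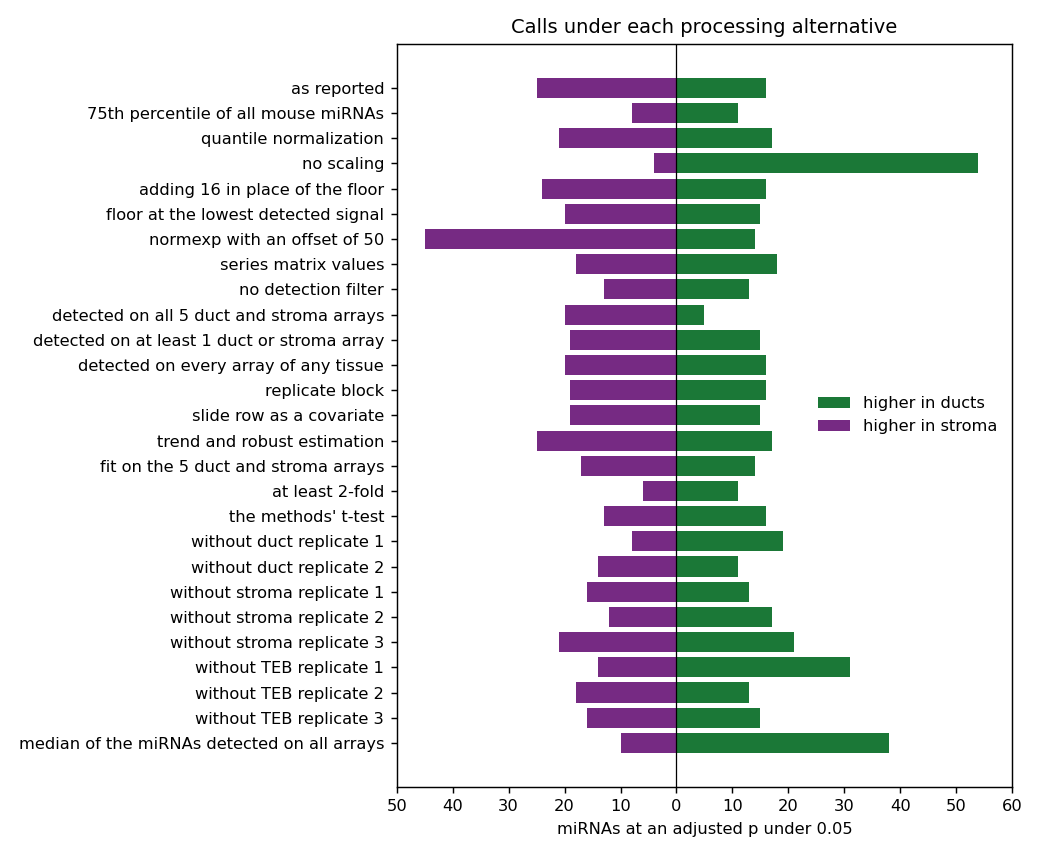
Number of miRNAs at an adjusted p under 0.05, higher in stroma (left, purple) and higher in ducts (right, green), as reported and under each processing alternative. The split is 25 and 16 as reported, 8 and 11 with the 75th percentile of all mouse miRNAs, and 4 and 54 with no scaling.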

How the data were processed

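miRNAs were measured in mature ducts (2 arrays), stroma (3) and TEBs (3), and each sample took its group from its title. The authors deposited, per the file headers, the total gene signal intensity, its error and a detection flag from Agilent Feature Extraction 9.5.3, summed over the probes of a miRNA, background-subtracted and not normalized between arrays. Their deposited log2 table has equal 75th percentiles on all arrays. How it was normalized is not given in the sources used here, and its column medians were 0.14 to 1.48. It served as an alternative.

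Each array was scaled to the 75th percentile of the miRNAs detected everywhere, a floor of 1 was applied, and the signals were put on the log2 scale. A linear model (limma 3.58.1, R 4.3.3, moderated by eBayes) was fitted to all 8 arrays with tissue as the only term, with Benjamini-Hochberg adjustment over the 151 miRNAs tested and a threshold of 0.05. Every adjusted p given without another name comes from this fit. The files give no counts, and the number of arrays limits the precision.

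Named miRNAs were the called ones (the 12 with the largest difference and separate groups where a direction had over 15), those detected in only 1 tissue, the 5 brightest in each tissue and up to 4 members of each of 17 lists, the brightest first. Some further calls are named as picked after their values were seen. Members, lists and rules were chosen with earlier results of these data known. Alternatives covered scaling, floor, background correction, detection filter, model, test and leaving out each array.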

Additional observations from a re-analysis of the deposited data

Results flagged for a closer look

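Among the 39 viral probes of the array, which enter no comparison, 2 gave a signal on all 5 duct and stroma arrays. The probe for mghv-miR-M1-2, named for a murine gammaherpesvirus, had a mean of 94.684 scaled units, with 115 and 62.7 in ducts and 83.3, 126 and 86.2 in stroma, and it was also detected on the 3 TEB arrays. The probe for mghv-miR-M1-7-3p had a mean of 34.185 units, with 37.0 and 22 in ducts and 27.3, 49.9 and 34.7 in stroma, and it was detected on 0 TEB arrays. For both probes the duct and stroma values overlapped, and the origin of these signals was not tested.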

How the results depend on the processing

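The 41 calls (16 higher in ducts, 25 in stroma) became 19 (11 and 8) with the 75th percentile of all mouse miRNAs, 58 (54 and 4) with no scaling, 48 (38 and 10) with scaling to the median of the miRNAs detected on all arrays, an alternative chosen after seeing the data, and 59 (14 and 45) with normexp and an offset of 50. They became 26 (13 and 13) with no detection filter, which tests all 611. Requiring detection on all 5 arrays, which drops miRNAs undetected in a tissue, gave 25 (5 and 20). A minimum fitted difference of 2-fold gave 17 (11 and 6). The methods' t-test gave 29 (16 and 13) after Benjamini-Hochberg adjustment and 47 before it. For the scaling and normexp alternatives the cause was not tested beyond the shift of the median given above. After normexp miR-18a turned to -0.1656 and miR-210 to -0.0097. Leaving out 1 array gave 25 to 45 calls, 11 to 31 higher in ducts and 8 to 21 higher in stroma. miRNAs detected only in ducts numbered 10 to 20 on leaving out 1 array and 25 when 1 array sufficed, and those detected only in stroma 0 to 7 and 8. Whether equal replicate numbers mark paired samples was not settled. Same-numbered duct and stroma arrays deviated from their tissue means with r of -0.42 and -0.65 across miRNAs. With 2 duct arrays the deviations of one mirror those of the other, so these values cannot decide it. The replicate block gave 35 calls (16 and 19). Of 24 named miRNAs, 11 kept direction and call under every alternative that tested them, and none but miR-18a and miR-210 reversed. Signals near the lowest detected signal, such as those of miR-18a, limit what can be ordered.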
